A study of Homo sapiens with 4 samples.

Results

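The human alpha-like and beta-like globin genes are 10 protein-coding genes in 2 clusters: HBE1, HBG2, HBG1, HBD and HBB on chromosome 11, and HBZ, HBM, HBA2, HBA1 and HBQ1 on chromosome 16. They were selected by symbol, and all 10 were found among the 58274 gene identifiers of the deposited expression table. Their expression was followed through the hematopoietic differentiation of BC1, an induced pluripotent stem cell line from human cells, in 4 RNA sequencing libraries. The first library was made from undifferentiated BC1 cells. The others were made from APLNR+ mesoderm cells of day 2, CD31+CD34+ hemogenic endothelial progenitors (HEPs) of day 5 and CD43+ hematopoietic progenitor cells (HPCs) of day 8. Per the labels, the differentiating cells received activinA at 40 ng/ml with BMP4 at 50 ng/ml for the first 2 days, then VEGF at 40 ng/ml with bFGF at 50 ng/ml. The study's methods give the activinA and BMP4 doses the other way round, and which is right is not known here. All populations came from this single line, and each had 1 library, so no difference below has a replicate check and no test between populations was possible.

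Hemoglobin carries oxygen in red cells as a tetramer of a pair of alpha-like and a pair of beta-like chains, each holding a heme group. Both clusters switch during development: the embryonic genes HBE1 (epsilon) and HBZ (zeta) are used by primitive erythroid cells of the yolk sac, HBG1 and HBG2 (gamma) dominate the fetal beta-like cluster, and HBB (beta) and HBD (delta) are the adult genes. HBA1 and HBA2 (alpha) serve from the embryo to the adult, while HBM (mu) and HBQ1 (theta) are minor alpha-like genes that are not known to contribute to a major hemoglobin.

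Promoters are shown for the members that the RefSeq promoter table held, HBD and HBM, because both genes had 3 or fewer fragments in each library before CD43+ and rose there. The sequences are the 250 bases before the transcription start on GRCh38.p14, read 5′ to 3′, at chr11:5234484-5234733 on the minus strand for HBD and at chr16:165728-165977 on the plus strand for HBM. Capitals mark matches to the letters that were searched.
HBD: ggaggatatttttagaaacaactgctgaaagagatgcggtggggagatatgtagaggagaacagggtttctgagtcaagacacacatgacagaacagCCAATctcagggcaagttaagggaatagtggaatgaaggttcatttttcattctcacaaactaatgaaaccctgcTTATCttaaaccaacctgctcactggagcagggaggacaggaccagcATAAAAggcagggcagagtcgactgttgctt
HBM: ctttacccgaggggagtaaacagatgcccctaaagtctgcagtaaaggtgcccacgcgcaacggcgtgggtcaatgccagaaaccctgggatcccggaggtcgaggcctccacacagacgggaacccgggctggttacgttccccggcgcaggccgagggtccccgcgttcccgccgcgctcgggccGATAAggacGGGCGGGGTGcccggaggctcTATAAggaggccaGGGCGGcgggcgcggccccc
The letters GATAA, to which GATA factors bind, were searched on both strands. So were CACCC, which KLF1 and its relatives bind, as well as CCAAT and also CCGCCC. For a TATA box, TATAA was searched on the gene's own strand within the 50 bases before the start, and ATAAAA in the same way. In HBD, CCAAT began at position -153 from the start, the reverse complement of GATAA at -78 and ATAAAA at -31. In HBM, GATAA began at -63, the reverse complement of CCGCCC at -54 and at -20, that of CACCC at -49 in overlap with the first CCGCCC match, and TATAA at -33. Among the 35116 promoters of the table cut to the same 250 bases, 20.4% held GATAA, 54.7% CACCC, 32% CCAAT, 42.6% CCGCCC and 6.00% a TATA match in the stated window. The G and C content was 45.2% for the HBD promoter and 69.2% for the HBM promoter. These matches describe the letters of the windows and say nothing of binding in these cells.

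The values are FPKM, fragments scaled to transcript length and to the mapped fragments of the library. The depth of each library was recovered from the steps between low FPKM values and lay between 19600000 and 23600000 mapped fragments. Between 13554 and 14335 genes had at least 1 FPKM in a library. The markers of the sorts followed their labels: APLNR was highest in APLNR+ at 1073 FPKM, CD34 was highest in CD31+CD34+ at 102 FPKM, and SPN, which encodes CD43, was highest in CD43+ at 92.4 FPKM. PECAM1, which encodes CD31, had 93.1 FPKM in CD31+CD34+ and 126 in CD43+. Mitochondrial genes took between 5.80% and 8.16% of the summed FPKM. A gene was counted as rising or falling between consecutive populations when its log2(FPKM + 1) differed by at least 2. Intervals are 95% intervals from approximate fragments and cover counting error only, and a value of 3 fragments or fewer was treated as not detectable at this depth. In bulk libraries, fewer cells of a type and less RNA per cell cannot be told apart.

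Most globin genes rose at the last step only. From BC1 to APLNR+, 0 of the 10 globin genes rose, against 2.68% of the 17137 genes passing the filter. From APLNR+ to CD31+CD34+, 2 of 10 rose (HBE1 and HBG2), against 4.08% of all genes. From CD31+CD34+ to CD43+, all 10 rose, against 2.28% of all genes that rose and 4.32% that fell. The median change of the globin genes was -0.08, 0 and 6.95 at the consecutive steps on the log2 scale, beside 0, 0.01 and -0.08 for all genes passing the filter. All 10 globin genes reached the filter of 1 FPKM in a library. CD43+ was the only such library for 7 of them, which therefore had to differ from the earlier libraries.

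**Figure D1:**
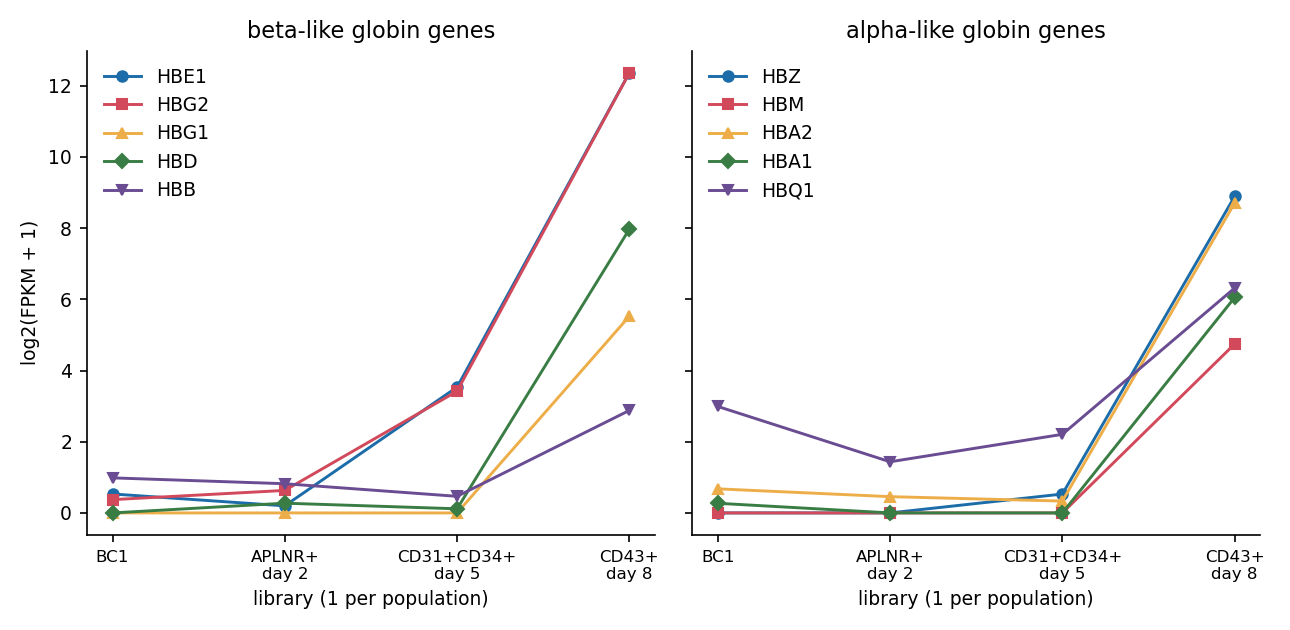
Expression of the beta-like (left) and alpha-like (right) globin genes as log2(FPKM + 1) in the 4 libraries, 1 point per gene and library. All 10 genes are highest in CD43+, HBE1 and HBG2 are already raised in CD31+CD34+, and HBQ1 is the only member above 1 FPKM in BC1.

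The number of globin genes above 3 fragments was 3 in BC1 and 3 in APLNR+, then 5 in CD31+CD34+ and 10 in CD43+. The genes listed at 0 numbered 4, 4, 3 and 0. The summed FPKM of the 10 genes was 9.47 in BC1 and 3.75 in APLNR+, then 25.1 in CD31+CD34+ and 11889 in CD43+. HBQ1 was the largest single part of the BC1 and APLNR+ sums, and HBE1 and HBG2 most of the CD31+CD34+ and CD43+ sums. The last step was a 474-fold rise of the sum (interval 421 to 538). In CD43+ the globin genes took 1.80% of all FPKM. In approximate fragments they took 0.554% of the mapped fragments, because FPKM divides by length and globin transcripts are short. HBE1 held 71958 of these 119651 approximate fragments, so the share depends on the transcript length taken for HBE1.

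HBE1, the embryonic epsilon chain (listed at chromosome 11, 5268345 to 5505617, GRCh38), had 0.447 FPKM in BC1 and 0.148 in APLNR+, then 10.6 in CD31+CD34+ and 5271 in CD43+. The APLNR+ value stood for 3 fragments or fewer, so HBE1 was at least 49.2-fold higher in CD31+CD34+. It then rose a further 498-fold in CD43+ (interval 427 to 587). HBE1 was the gene with the 8th highest FPKM of that library, and its log2 change was the 3rd largest of the 17137 genes.

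HBG2, the fetal G-gamma chain (5253190 to 5645789), followed HBE1 closely. Its values were 0.295 FPKM in BC1 and 0.550 in APLNR+, then 9.69 in CD31+CD34+ and 5256 in CD43+. It rose 17.6-fold from APLNR+ to CD31+CD34+ (interval 6.90 to 69.2) and 542-fold from there to CD43+ (interval 432 to 684). HBG2 ranked 9th by level in CD43+, directly after HBE1, and 2nd by log2 change. The ratio of HBE1 to HBG2 was 1.09 in CD31+CD34+ (interval 0.821 to 1.44) and 1.003 in CD43+ (interval 0.990 to 1.02), so the FPKM of these neighbours did not differ beyond counting error in either library.

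HBG1, the fetal A-gamma chain (5248083 to 5249892), was listed at 0 in BC1, APLNR+ and CD31+CD34+ and at 45.0 FPKM in CD43+, at least 104-fold higher than the 3-fragment floor of CD31+CD34+ (177-fold when fragments were taken from the longest coding transcript). In CD43+, HBG2 stood 117-fold above HBG1 (interval 104 to 132). The transcripts of these genes were 99.2% identical over 587 aligned positions, and 51.5% of the 100-base windows of the HBG2 transcript also occurred in HBG1. The split of fragments between HBG1 and HBG2 is therefore uncertain, and their sum of 5301 FPKM is the firmer value.

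HBD, the minor adult delta chain (5232678 to 5235370), had 0 FPKM in BC1 and 0.209 in APLNR+, then 0.0836 in CD31+CD34+ and 249.7 in CD43+. It was not detectable before CD43+ and at least 617-fold above the floor there (1035-fold with the longest coding transcript). HBB, the major adult beta chain (5225464 to 5229395), had 0.979 FPKM in BC1 and 0.766 in APLNR+, then 0.381 in CD31+CD34+ and 6.36 in CD43+. HBB had the smallest rise of the 10 globin genes, 16.7-fold with a wide interval of 6.04 to 93.5 because CD31+CD34+ held about 3.38 fragments. That interval contains the one of HBQ1 (14.2 to 35.0), so by fold HBB cannot be set apart as the lowest. From BC1 to CD43+, the HBB level differed 6.49-fold (interval 2.90 to 15.02).

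HBD thus exceeded HBB 39.3-fold in CD43+ (interval 29.9 to 53.2). Their transcripts were 86.1% identical over 610 aligned positions. They shared no 100-base window, and 2.98% of the 50-base windows of HBD occurred in HBB. The summed gamma genes stood 20.7-fold above the summed HBD and HBB (interval 19.7 to 21.7).

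HBZ, the embryonic zeta chain (chromosome 16, 152687 to 154503), was listed at 0 in BC1 and APLNR+, at 0.445 FPKM in CD31+CD34+ and at 473.9 in CD43+. The CD31+CD34+ value stood for about 4.99 fragments, and the rise to CD43+ was 1066-fold (interval 456 to 3280). By the table's split between HBA1 and HBA2, HBZ was the highest alpha-like gene of CD43+, and it ranked 6th of all genes by log2 change.

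HBA2, the main alpha gene of the fetal and adult pair (172847 to 173710), had 0.598 FPKM in BC1 and 0.373 in APLNR+, then 0.259 in CD31+CD34+ and 417 in CD43+. HBA1 (176680 to 177522), which encodes the same alpha chain, had 0.207, 0, 0 and 65.3 FPKM in the same order. Neither was above 3 fragments before CD43+, where HBA2 was at least 768-fold and HBA1 at least 134-fold above the CD31+CD34+ floor. HBA2 stood 6.38-fold above HBA1 (interval 5.71 to 7.16). Their transcripts were 96.5% identical, and 79.9% of the 100-base windows of HBA2 occurred in HBA1, so this split is uncertain, as for the gamma genes. The pair summed to 482 FPKM, and the ratio of HBZ to the pair was 0.982 (interval 0.936 to 1.032), a difference within counting error.

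HBM (153892 to 166768) was listed at 0 in BC1, APLNR+ and CD31+CD34+ and at 25.8 FPKM in CD43+, at least 46.1-fold above the floor. Its annotated exons share 205 bases with those of HBZ, whose level was far higher, so part of its value could not be told apart from HBZ. HBQ1 (180453 to 181181) behaved differently in the early libraries, with 6.95 FPKM in BC1 and 1.71 in APLNR+, then 3.62 in CD31+CD34+ and 78.7 in CD43+. It was the only globin gene above 1 FPKM in BC1, where the value rested on about 38.0 fragments. Its level was 4.07-fold lower in APLNR+ (interval 2.00 to 9.20), a log2 change of -1.55 that did not reach the threshold, and 21.7-fold higher in CD43+ than in CD31+CD34+ (interval 14.2 to 35.0).

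**Figure D2:**
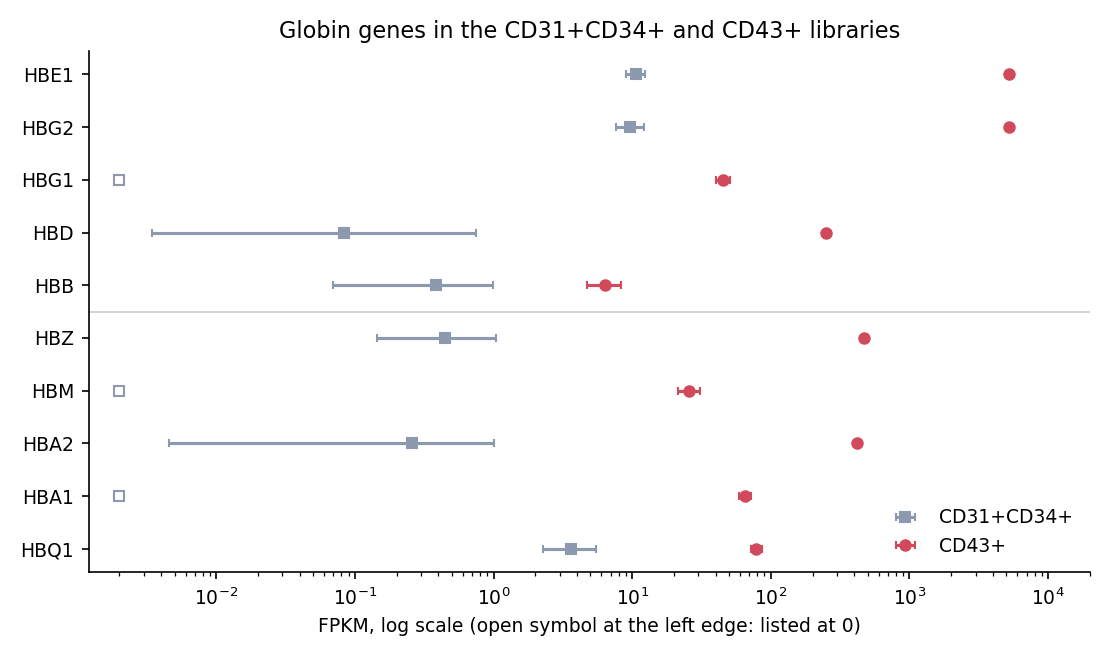
FPKM of each globin gene on a log axis in CD31+CD34+ (squares) and CD43+ (circles), with 95% counting intervals as bars; open squares at the left edge are genes listed at 0 in CD31+CD34+. The 10 genes span from 6.36 FPKM for HBB to 5271 for HBE1 in CD43+, and no CD43+ interval overlaps that of the same gene in CD31+CD34+.

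In order of FPKM in CD43+, the genes were HBE1, HBG2, HBZ, HBA2, HBD, HBQ1, HBA1, HBG1, HBM and HBB. The closest neighbours after HBE1 and HBG2 were HBZ over HBA2 at 1.14-fold (interval 1.08 to 1.20) and HBQ1 over HBA1 at 1.20-fold (interval 1.048 to 1.39). The largest gap between neighbours lay between HBG2 and HBZ, and HBE1 was 11.1-fold above HBZ (interval 10.8 to 11.5). These intervals hold for 1 library and do not cover variation between cultures.

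The beta-like cluster rose from 20.7 FPKM in CD31+CD34+ to 10829 in CD43+, a 522-fold rise (interval 460 to 595). The alpha-like cluster rose from 4.32 to 1061 FPKM, a 245-fold rise (interval 172 to 374). The intervals of these folds did not overlap. However, HBQ1 held 83.7% of the alpha-like sum in CD31+CD34+, and it rose 21.7-fold. HBZ rose 1066-fold and HBA2 at least 768-fold, while HBA1 and HBM had lower bounds of 134-fold and 46.1-fold. The lower fold of the alpha-like sum therefore does not hold for each of its genes. In CD43+ the beta-like sum was 10.2-fold the alpha-like sum (interval 9.98 to 10.4), an alpha-like to beta-like ratio of 0.0980 in FPKM and 0.0704 in approximate fragments. The alpha-like transcripts had a G and C content between 64.4% and 68.8% and the beta-like transcripts between 47.0% and 51.8%, without overlap. The part of base composition in the ratio between the clusters was not tested.

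By FPKM, HBE1 made up 48.7% of the beta-like sum in CD43+, the gamma genes 49.0% and HBD with HBB 2.36%. Of the alpha-like sum, HBZ made up 44.7%, HBA1 with HBA2 45.5%, HBQ1 7.42% and HBM 2.43%. The embryonic genes HBE1 and HBZ together held 48.3% of all globin FPKM. In approximate fragments the shares shifted to 64.4% for HBE1 and 34.1% for the gamma genes, and to 61.7% for HBZ and 31.2% for HBA1 with HBA2. The annotated coding transcripts of HBE1 have a median length of 913 bases, but 1 of them has 616, and the HBG2 median is 614, so the balance between HBE1 and HBG2 depends on the transcript length that the authors' processing assigned. The listed span of HBG2 also contains that of HBE1, although their annotated exons share 37 bases. HBE1 and HBG2 transcripts were 80.8% identical and shared no 100-base window.

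**Figure D3:**
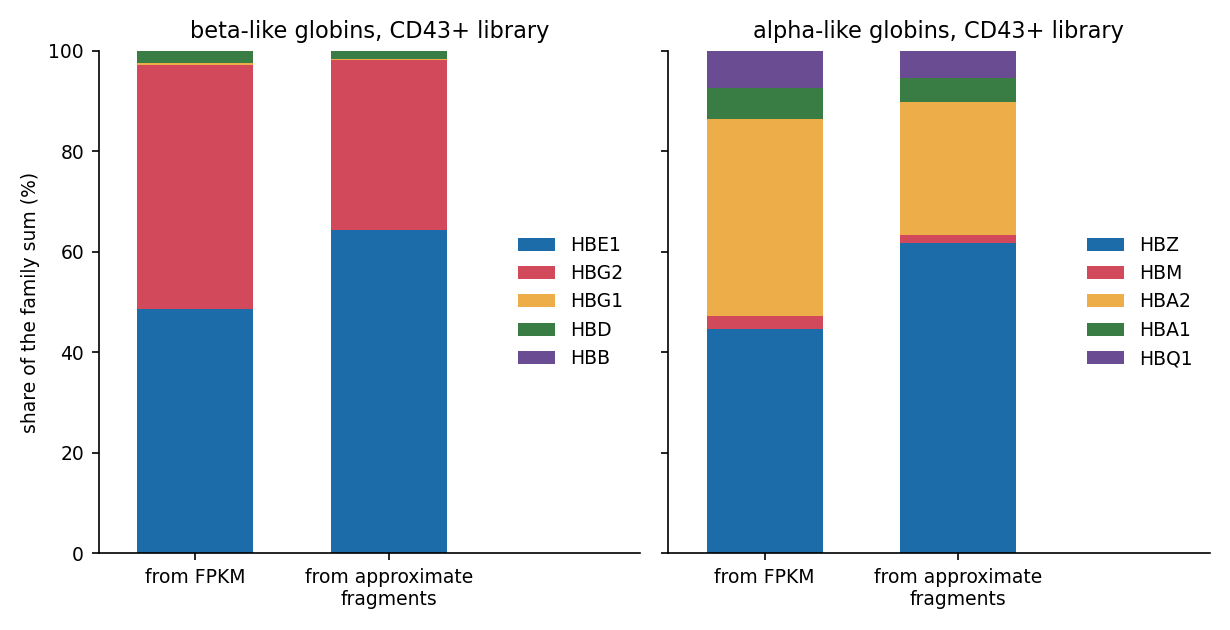
Share of each gene in the summed beta-like (left) and alpha-like (right) globin values of the CD43+ library, in percent, from FPKM and from approximate fragments. HBE1 and the gamma genes hold nearly all of the beta-like sum by either measure, and HBZ with HBA2 most of the alpha-like sum, while the shares of HBE1 and HBZ are larger in fragments.

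In the CD31+CD34+ library, HBE1 and HBG2 were also the highest beta-like genes. HBE1 held 51.0% and HBG2 46.7% of its beta-like FPKM, and HBD with HBB 2.24%, which rested on about 3.996 fragments. The alpha-like sum of that library was 83.7% HBQ1 and 10.3% HBZ. HBE1 and HBG2 were thus raised in CD31+CD34+, while the beta-like HBG1 and HBD and the alpha-like HBA1, HBA2 and HBM were not detectable there. HBB, HBZ and HBQ1 were above 3 fragments in CD31+CD34+, but none of them rose from APLNR+ by the threshold.

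**Figure D4:**
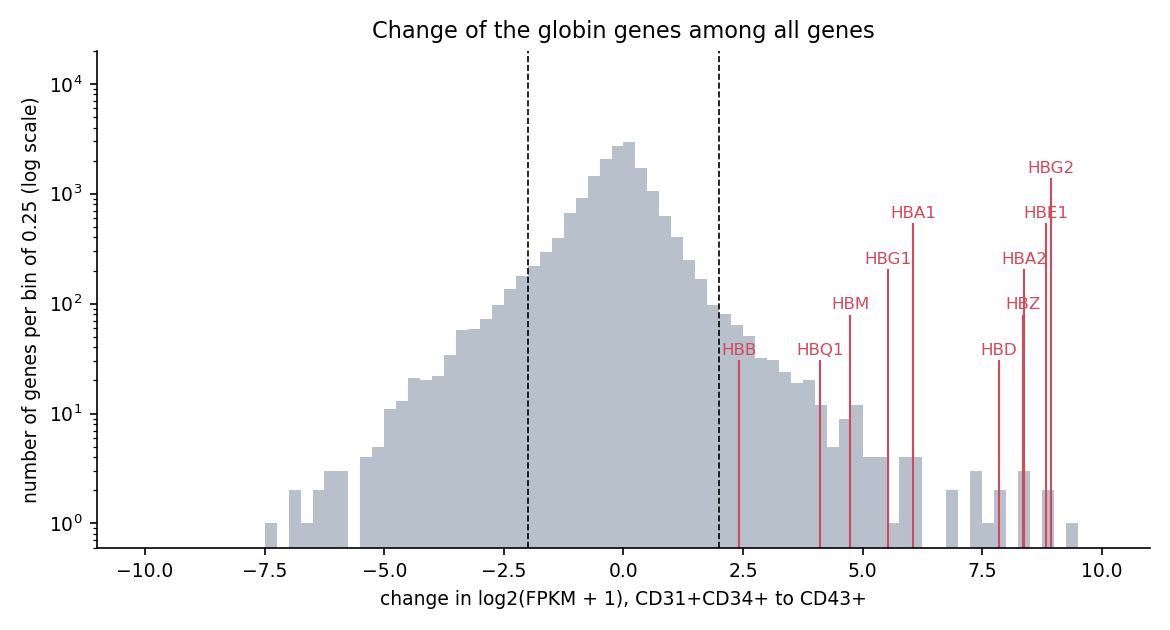
Distribution of the change in log2(FPKM + 1) from CD31+CD34+ to CD43+ over the 17137 genes passing the filter (grey, genes per bin of 0.25 on a log axis), with the 10 globin genes marked by red lines, whose height only separates the names, and the threshold of 2 in either direction dashed. All 10 lie right of the threshold, from 2.41 for HBB to 8.94 for HBG2.

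Among all genes, the ranks of the globin changes at the last step were 2 for HBG2, 3 for HBE1, 5 for HBA2, 6 for HBZ, 8 for HBD, 17 for HBA1, 23 for HBG1, 44 for HBM, 64 for HBQ1 and 263 for HBB. HBB was therefore the only member outside the highest 64 changes.

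Of the other listed elements of the clusters, HBBP1 and BGLT3 rose in CD43+. HBBP1, the beta-like pseudogene between HBD and HBG1, was listed at 0 in BC1, APLNR+ and CD31+CD34+ and at 30.7 FPKM in CD43+, at least 161-fold above the floor. BGLT3, a long noncoding RNA gene of the same interval, was likewise listed at 0 until CD43+, where it had 10.5 FPKM. HBZP1, the zeta pseudogene, stayed at 0 and then 0.635 FPKM, at most 3 fragments and so not detectable at this depth. The sequence of HBBP1 was not compared with those of the beta-like genes, so how well its fragments were split from theirs is not known here.

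Apart from HBBP1 and BGLT3, none of the listed genes around the clusters rose at the last step. Within 100 kilobases of the beta-like cluster lay 19 other listed genes, 12 of them olfactory receptor genes or pseudogenes, and all 12 were at 0 in CD43+. Only 3 of the 19 passed the filter, HBBP1 and BGLT3 among them. Within 100 kilobases of the alpha-like cluster, 9 of 18 other genes passed the filter, 0 rose and 1 fell, against 2.28% and 4.32% of all genes. These counts are too few to set the neighbours apart from all genes. NPRL3, whose introns hold the major upstream enhancers of the alpha-like genes, had 13.3 FPKM in BC1 and 16.3 in APLNR+, then 14.97 in CD31+CD34+ and 25.9 in CD43+. RHBDF1, an inactive rhomboid protease gene, was the one that fell, with 21.5, 34.2, 37.3 and 4.04 FPKM in the same order.

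Of 12 regulators of erythroid genes, among them the repressor GFI1B, 4 rose from CD31+CD34+ to CD43+ and 0 fell, against 2.28% and 4.32% of all genes. The median change of the 12 was 1.30 on the log2 scale, beside -0.08 for all genes. Not all of the list increased: TCF3 was 1.82-fold lower in CD43+ (242 to 133 FPKM). KLF3 was 1.55-fold lower (17.8 to 11.5 FPKM), and both were short of the threshold. GATA1, the master erythroid and megakaryocytic factor that binds both clusters, was listed at 0 in BC1 and APLNR+, at 13.4 FPKM in CD31+CD34+ and at 190 in CD43+, a 14.2-fold rise (interval 12.7 to 15.9). NFE2, a subunit of the factor that binds the globin enhancers, had 1.13, 0.559, 12.6 and 235 FPKM, an 18.6-fold rise (interval 16.8 to 20.6). GFI1B, a transcriptional repressor needed in the same lineages, rose 5.23-fold from 35.9 to 188 FPKM, and ZFPM1, the GATA1 cofactor FOG1, rose 5.16-fold from 13.4 to 69.3 FPKM. KLF1, which activates HBB in adult erythroid cells, had 0.190, 7.39, 17.9 and 68.7 FPKM, a 3.83-fold difference at the last step (interval 3.48 to 4.21) with a log2 change of 1.88.

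The GATA1 partners TAL1 and LMO2 rose from APLNR+ to CD31+CD34+, as GATA1 also did. Unlike GATA1, they missed the threshold at the last step, with log2 changes of 1.36 for TAL1 and 0.81 for LMO2. TAL1 had 0, 0.0608, 71.2 and 184 FPKM, and LMO2 had 0.756, 0.459, 106 and 188 FPKM. At the step from APLNR+ to CD31+CD34+, 5 of the 12 regulators rose, against 4.08% of all genes: GATA1, TAL1, LMO2, NFE2 and GFI1B. HBE1 and HBG2 were the globin genes that rose at this step.

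Of 18 genes known as repressors of the gamma genes or as their corepressors, 16 passed the filter, and at the last step 1 rose and 0 fell, beside 2.28% and 4.32% of all genes, with a median change of -0.21. These counts are too close to the shares over all genes to set the list apart. IKZF1, which encodes Ikaros, rose 8.14-fold from 2.31 to 18.8 FPKM (interval 6.97 to 9.59). BCL11A, the best known silencer of the gamma genes, had 8.89 FPKM in BC1 and 8.93 in APLNR+, then 0.864 in CD31+CD34+ and 4.22 in CD43+. It fell by 2.41 on the log2 scale into CD31+CD34+, and its last change of 1.49 missed the threshold, a 4.88-fold difference (interval 3.19 to 7.96). With a pseudocount of 0.1 FPKM the count of risen repressors was 2 in place of 1. ZBTB7A, the other main gamma silencer, stayed between 11.7 and 18.2 FPKM in the 4 libraries, and SOX6, a BCL11A partner, was at most 0.273 FPKM.

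Of 6 genes of the fetal program, namely the RNA-binding LIN28 and IGF2BP genes and HIC2, a repressor of BCL11A, 0 rose and 0 fell at the last step. Over all genes 2.28% rose and 4.32% fell, so these counts do not set the list apart. The median change was -0.23, beside -0.08 for all genes. LIN28B, which favours fetal globin expression, had 26.2, 28.0, 19.4 and 22.3 FPKM across the libraries. IGF2BP1 had 43.8, 63.8, 53.2 and 39.7 FPKM. LIN28A was highest in BC1 at 363 FPKM and had 92.9 in CD43+.

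**Figure D5:**
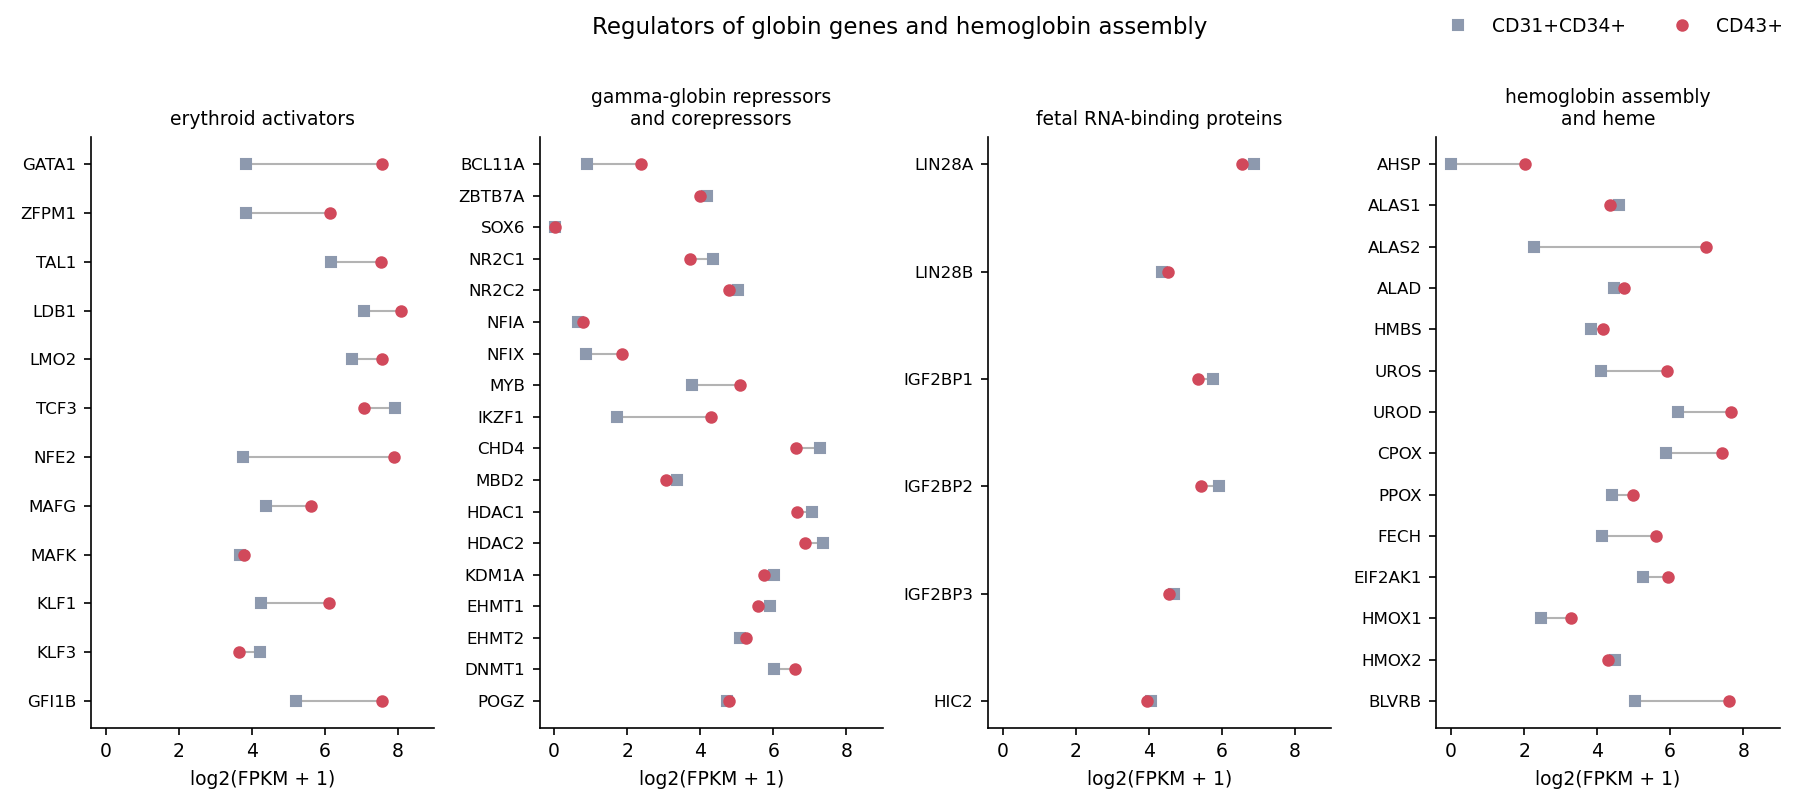
Log2(FPKM + 1) in CD31+CD34+ (grey squares) and CD43+ (red circles) of the genes of 4 lists, joined by a line per gene. NFE2 and GATA1 moved furthest in the list titled erythroid activators, which includes the repressor GFI1B. IKZF1 moved furthest among the gamma repressors and ALAS2 in the heme list, while the fetal RNA-binding proteins differed little.

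Hemoglobin also needs heme, iron and a chaperone for free alpha chains. Of 14 genes for hemoglobin assembly and heme, 3 rose at the last step and 0 fell, against 2.28% and 4.32% of all genes, with a median change of 1.13. ALAS2, the erythroid enzyme of the first step of heme synthesis, had 0.0331, 0.988, 3.85 and 126 FPKM and rose 32.8-fold (interval 25.4 to 42.8). Its housekeeping counterpart ALAS1 had 23.1 FPKM in CD31+CD34+ and 19.3 in CD43+. BLVRB, a biliverdin reductase, rose 6.18-fold from 31.6 to 195 FPKM.

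AHSP, which stabilises free alpha chains, was the third that rose, from 0 in CD31+CD34+ to 3.08 FPKM in CD43+. That value stood for about 5.83 fragments, was at least 2.17-fold above the floor and was close to the 2.35 FPKM of BC1. Of 9 iron supply genes, 1 rose, against 2.28% of all genes: TFRC, the transferrin receptor, went from 4.61 to 50.4 FPKM, a 10.9-fold rise (interval 9.97 to 12.001), after 34.3 in BC1 and 34.4 in APLNR+.

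Among genes of the red cell membrane and its enzymes, SPTB, which encodes the beta chain of erythroid spectrin, had 0.522, 0.0415, 0.920 and 14.99 FPKM across the libraries and rose 16.3-fold at the last step (interval 14.03 to 19.1). RHAG, a membrane channel of the Rh complex, rose 4.36-fold from 25.4 to 111 FPKM (interval 3.98 to 4.78). SLC4A1, the anion exchanger of mature red cells, had 1.503 FPKM in CD43+, and CA1, the adult carbonic anhydrase, 1.80 FPKM.

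Of the marker lists of other blood lineages, the megakaryocytic list rose in full at the last step, as the globin genes did. The 5 megakaryocytic markers summed to 13.6 FPKM in BC1 and 4.24 in APLNR+, then 87.4 in CD31+CD34+ and 3073 in CD43+. In CD43+ they ranged from 53.2 FPKM for GP9 to 1674 for PF4. All 5 rose at the last step, against 2.28% of all genes. From APLNR+ to CD31+CD34+, 3 of the 5 also rose, against 4.08% of all genes, while 2 of the 10 globin genes did. Of the general hematopoietic markers, which include ITGA2B and GATA1, 4 passed the filter and 3 rose at the last step, against 2.28% of all genes. The 6 erythroid markers summed to 10.1, 23.0, 61.6 and 282 FPKM. Of these, 3 rose at the last step, against 2.28% of all genes, ALAS2 and AHSP among them. EPOR, the erythropoietin receptor, had 35.2 FPKM in CD31+CD34+ and 30.6 in CD43+, and the log2 changes of KLF1 (1.88) and SLC4A1 (1.29) did not reach the threshold. Of the 5 myeloid markers, 4 passed the filter and 1 rose at the last step, against 2.28% of all genes: CSF1R, to 8.80 FPKM. In CD43+, SPI1 was at 104 FPKM, LYZ at 12.7 and MPO at 0.0790. CD14 went from 0.587 FPKM in CD31+CD34+ to 0.0339 in CD43+. PTPRC, the leukocyte antigen CD45, was at 0.0320 FPKM. The 6 endothelial markers summed to 1298 FPKM in CD31+CD34+ and 299 in CD43+. The part of the mix of lineages in the globin levels was not tested.

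The genes whose consecutive log2 changes were closest to those of the summed globins, by root mean squared difference over the 4 libraries, were IFI6 (1.39), PF4 (1.49), PLEK (1.54), AC015911.1 (1.61) and PPBP (1.66). PF4 and PPBP encode platelet chemokines, PLEK encodes the platelet protein pleckstrin, and IFI6 is an interferon-stimulated gene. PF4 had 1.76, 0, 14.4 and 1674 FPKM, and IFI6 had 5.07, 4.60, 8.61 and 1675 FPKM. Among the members themselves, HBE1 (0.689) and HBG2 (0.832) were closest to the sum, which they dominate, and HBB (4.09) was farthest. The other globin superfamily genes did not follow: myoglobin (MB) was at 0 in CD43+, cytoglobin (CYGB) was highest in APLNR+ at 19.2 FPKM and had 4.29 in CD43+, and NGB and ADGB were at 0 in CD43+.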

How the data were processed

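RNA was extracted with Trizol and libraries were made with an Illumina TruSeq RNA kit, per the labels. The authors deposited 1 table of gene-level FPKM values with a column for each of the 4 libraries. The table does not name its unit, which was taken from the values and from the study's box plots. The submitters' processing notes list BWA, Bowtie, RSEM and hg19 without roles. The identifiers and positions instead matched GENCODE release 29 on GRCh38: of 55647 identifiers of the same version, 55645 had the same start and end. Of the 10 globin genes, 4 had the same identifier version, so the gene models of the others may differ. Rows of 1 gene identifier were summed (90 identifiers; 0 globin genes).

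Values were analysed as log2(FPKM + 1), which understates the change of low genes, over genes that reached 1 FPKM in any library. Depth was read from low values of genes with a single transcript of at least 1000 bases, where from 92.9% to 95.1% gave whole fragments within 0.1. Approximate fragments used the median length of protein-coding transcripts less the fitted 257 to 281 bases. For transcripts as short as those of globins this correction is large. Intervals are exact Clopper-Pearson or Poisson 95% intervals, and 3 fragments was the floor. With 1 library per population no test was run. The call rule and depth recovery were tested on simulated data. For the call rule, changes were simulated only in genes well expressed in CD31+CD34+, a level that HBE1 and HBG2 alone reached among the globin genes. The calls of the other globin genes were therefore not covered. Transcripts were compared by local alignment (Biopython 1.88), using for each gene the longest coding sequence and then the shortest transcript.

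The globin genes and the gene lists were chosen with earlier results of these data known, and the promoter letters with the sequences in view. Genes named were all members, list genes that differed by at least 2 at the last step (at most 5 per direction) or on which a result turns, the 5 genes most like the globin sum, and neighbours that differed by at least 2. Some genes of the red cell membrane list, and its counts, are not reported here. RHAG and the genes named for levels below the threshold were named after their values were seen.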

Additional observations from a re-analysis of the deposited data

How the results depend on the processing

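Across 181 recalculations with other pseudocounts, filters, thresholds, scalings, lengths and row sums, 0 reversed, 145 were labelled the same and 36 moved. Some of those labelled the same could not have moved. Taking the largest row changed no globin value, as 0 globin genes had several rows. Leaving out the filter changed no globin count, as all 10 passed it. Another transcript length left a fold between detected values as it was. The limits for these labels differed between kinds of result and are not given here. With a pseudocount of 0.1 FPKM, 20 risen list genes in place of 17 were labelled the same. With that pseudocount, a last log2 change of 8.95 in place of 8.83 for HBE1 was labelled as moved. Each globin gene kept a change of at least 2 at the last step in all 30 recalculations of the single changes, and with a pseudocount of 0.1 FPKM 3 rather than 2 rose into CD31+CD34+. Using approximate fragments in place of FPKM gave an alpha-like to beta-like ratio of 0.0704. It gave beta-like shares of 64.4% for HBE1, 34.1% for the gamma genes and 1.55% for HBD with HBB. It gave alpha-like shares of 61.7% for HBZ, 31.2% for HBA1 with HBA2 and 7.11% for HBM with HBQ1. These shares moved because the length correction was taken out. The globins were 2.09% of the FPKM of protein-coding genes outside the mitochondrial genome and 0.554% of mapped fragments by the approximate count. A threshold of 1 on the log2 scale counted 31 risen list genes in place of 17, since it is less strict. The smaller pseudocount of 0.1 FPKM enlarged the last log2 change of the low genes, to 8.82 for HBG1, 8.02 for HBM, 9.35 for HBA1 and 3.75 for HBB. With the same pseudocount, 1 of the 5 genes most like the globin sum remained, and the cause was not tested.

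No paired analysis was possible because each population had 1 library. For the same reason leaving out a replicate was not done. Members listed at 0 before CD43+ have only lower bounds for their fold changes, and the splits between near-identical copies were not resolvable from gene-level values.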
